A study of Rattus norvegicus with 12 samples.

Results

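This account covers 9 genes of inhibitory transmission in the lumbar spinal cord of the rat: Gad1, Gad2, Slc32a1, Slc6a5, Slc6a9, Glra1, Glra3, Glrb and Gphn. They were chosen by name from a table of 23526 genes, and 18714 genes, all 9 among them, passed the filter on low counts. RNA was sequenced from whole tissue of segments L3 to L5 in 12 libraries, 3 each at day 3, day 7 and day 14 after spinal cord injury (SCI) and 3 from sham rats at day 0. The labels give neither the level nor the kind of injury, neither strain nor age, and do not say whether the libraries of a group came from separate animals. P-values therefore measure only the spread between these libraries, which may be technical. No sham library was taken at the later days, and all comparisons with sham share the same 3 sham libraries. The libraries held between 63.0 and 79.1 times 1e+06 counts.

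Inhibition in the spinal cord is carried by GABA and glycine, which many interneurons release together. The glutamate decarboxylases encoded by Gad1 (GAD67) and Gad2 (GAD65) make GABA, and the vesicular transporter of Slc32a1 (VGAT) loads both GABA and glycine into synaptic vesicles. Glycine is taken back up by GlyT2 (Slc6a5), which is found in glycinergic neurons and serves to refill their terminals, and by GlyT1 (Slc6a9), which is mostly glial. Glycine receptors are chloride channels built from alpha subunits (Glra1, the main adult form, and Glra3, found in the dorsal horn) and a beta subunit (Glrb), which binds the scaffold protein gephyrin (Gphn). Gephyrin also anchors GABA-A receptors and, outside synapses, makes the molybdenum cofactor in many tissues.

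The genes lie apart in the genome, Gad1 and Slc32a1 on chromosome 3 and the others on chromosomes 17 (Gad2), 1 (Slc6a5), 5 (Slc6a9), 10 (Glra1), 16 (Glra3), 2 (Glrb) and 6 (Gphn), as the table names them. RefSeq promoter windows of build GRCr8, taken here as the 250 bases before each annotated start, matched 8 of the 9 genes, all but Glra1. The windows of Gad2, Slc32a1 and Glrb are shown because they lie upstream of the whole RefSeq gene span. They stand for GABA synthesis, vesicle loading and the receptor. The windows of Gad1, Slc6a5, Slc6a9, Glra3 and Gphn lie inside that span, so the counts over the 8 windows below mix both kinds. Capitals mark a GC box (GGGCGG, or CCGCCC where it is on the other strand) and a CRE core (TGACG).
Gad2, chr17:89671468-89671717 (+ strand): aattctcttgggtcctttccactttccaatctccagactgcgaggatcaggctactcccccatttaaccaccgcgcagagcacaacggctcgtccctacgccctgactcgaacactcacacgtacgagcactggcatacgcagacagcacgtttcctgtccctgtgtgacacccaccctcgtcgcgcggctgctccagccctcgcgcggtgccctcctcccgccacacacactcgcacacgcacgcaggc
Slc32a1, chr3:167686995-167687244 (+ strand): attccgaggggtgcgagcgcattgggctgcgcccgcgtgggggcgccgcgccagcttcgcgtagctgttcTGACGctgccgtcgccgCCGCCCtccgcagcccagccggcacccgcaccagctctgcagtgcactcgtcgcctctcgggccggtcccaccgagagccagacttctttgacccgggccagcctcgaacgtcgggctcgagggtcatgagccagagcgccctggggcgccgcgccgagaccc
Glrb, chr2:168505615-168505864 (- strand): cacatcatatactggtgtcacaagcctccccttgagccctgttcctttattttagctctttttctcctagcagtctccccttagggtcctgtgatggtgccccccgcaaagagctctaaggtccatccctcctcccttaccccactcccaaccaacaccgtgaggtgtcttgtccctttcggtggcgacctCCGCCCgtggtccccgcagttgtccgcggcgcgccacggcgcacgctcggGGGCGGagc
The Gad2 window held neither of these motifs, and the Slc32a1 window held a CRE core starting 180 bases and a GC box starting 163 bases before the start. The Glrb window held GC boxes starting 59 and 9 bases before the start. Of the 8 windows, 6 held a GC box on either strand, against 30.5% of all 33469 promoter windows of this length. An E-box (CANNTG) occurred in 5 of 8, against 65.5% of all windows, a TATA box (TATAAA) in 1 of 8 (Gad1), against 12.9%, and the CRE core in 1 of 8 (Slc32a1), against 18.2%. The median GC content of the 8 windows was 61.6%, against 51.2% over all windows, and the median number of CpG dinucleotides was 19, against 5. These matches describe the letters of the windows and do not show binding.

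The libraries differed in the RNA of cell type markers before any comparison of groups. The 15 general neuron markers, each detected in every library, summed to 859 to 10053 CPM (counts per 1e+06, scaled with TMM factors) at day 3 and to 9907 to 13662 CPM in sham. The low values were those of SCI day 3 replicates 1 and 3, whose mean log2 level on this list differed from sham by -3.01 and -3.55, while replicate 2 stood at -0.27. At days 7 and 14 the list stood between -0.71 and -0.01. Motor neuron markers, of which 5 of 6 were in the table, summed to 12.9 to 365 CPM at day 3 and 293 to 340 CPM in sham, and up to 2 of them were at 0 in a day 3 library. Sensory ganglion markers (all 8 in the table) summed to 14.3 to 191 CPM at day 3, against 35.7 to 65.4 CPM in sham, and to 39.8 to 75.0 CPM at day 7 and 43.3 to 744 CPM at day 14, with at most 2 at 0 in a library. Their sodium channel Scn10a stood out in 3 libraries, with 19.6 CPM in replicate 2 of SCI day 3 and 79.6 and 131 CPM in replicates 1 and 2 of SCI day 14, where no other library passed 1.05 CPM. Schwann cell markers ran from 2326 to 50786 CPM over the 9 SCI libraries and from 6200 to 41836 CPM in sham, and oligodendrocyte markers from 28745 to 42702 CPM and from 32261 to 72730 CPM. Astrocyte markers summed to 1837 to 5470 CPM at day 3, against 2704 to 4995 CPM in sham, and to 8749 to 10799 CPM at day 7 and 2968 to 7165 CPM at day 14. Gfap weighed heavily in these sums, with 4720 of the 5470 CPM in SCI day 3 replicate 1. The mean log2 level of the 7 astrocyte markers differed from sham by -1.31, -0.60 and -2.01 in replicates 1, 2 and 3 of SCI day 3. It differed by 0.36, 0.16 and -0.14 at day 7 and by -0.32, -0.16 and -0.0028 at day 14, with sham libraries between -0.49 and 0.26. Microglia and macrophage markers ran from 213 to 1150 CPM over the SCI libraries and from 156 to 194 CPM in sham, and the 4 endothelial markers in the table from 364 to 1276 CPM and from 219 to 304 CPM. Skeletal muscle markers reached 102 CPM in an SCI day 7 library and at most 9.99 CPM elsewhere, and erythrocyte markers reached 278 CPM in an SCI day 7 library and at most 48.1 CPM elsewhere. In whole tissue, fewer cells of a type and less RNA per cell cannot be told apart, and the part of tissue content in the results below was not tested.

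Per length of gene, GlyT1 and the beta subunit led the set in sham cord. Slc6a9 averaged 99.3 ± 33.4 FPKM (the authors' counts per kilobase and per 1e+06 reads) and Glrb 63.0 ± 12.7 FPKM (SD, n = 3). They were followed by Slc32a1 at 58.0 ± 10.5, Slc6a5 at 44.1 ± 6.86, Gad1 at 31.7 ± 4.33, Glra1 at 18.6 ± 2.83, Gad2 at 14.3 ± 3.17, Gphn at 12.5 ± 1.25 and Glra3 at 1.75 ± 0.522 FPKM. The Gphn value is that of its table entry with more counts. A further entry of the same gene averaged 8.31 ± 2.91 FPKM in sham, so the place of gephyrin relative to Gad2 and Glra1 is uncertain. Neighbours in this order overlapped over the 3 sham libraries except Slc32a1 above Slc6a5, Gad1 above Glra1 and Gphn above Glra3. Slc6a9 had the highest mean FPKM at days 3, 7 and 14 too, and at day 14 its level of 69.2 ± 3.78 FPKM was above that of Glrb, 39.2 ± 11.98 FPKM, in every library. Glra3 had the lowest mean FPKM at every day.

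At day 3 all 9 genes had lower mean levels in the injured than in the sham cord, with log2 fold changes between -2.04 and -0.73 and a median of -1.74, against 0.03 over all genes. The largest differences were those of VGAT and GlyT2, at 24.3% and 24.4% of the sham mean, and the smallest that of gephyrin, at 60.1%. For 8 of the 9, Gphn excepted, every day 3 library lay below every sham library, as was so for 18.3% of all genes tested. None of the 9 passed edgeR's quasi-likelihood test at a Benjamini-Hochberg adjusted p under 0.05, in a comparison that called 6.70% of all genes, 1.20% as lower. At an unadjusted p under 0.05 there were 5 of the 9 (Slc6a9, Glrb, Slc32a1, Gad1 and Glra1), against 35.3% of all genes. A fit of day 3 and sham alone gave 2 of the 9 and 4449 of 17905 genes at an unadjusted p under 0.05 (by edgeR). It called 1 gene and 0 of the 9. DESeq2 called 3 of the 9 as lower (Glrb, Slc32a1 and Slc6a9), where it called 10.9% of the genes it adjusted as lower. Limma voom with sample weights called 6 (Gad1, Glrb, Glra1, Slc32a1, Slc6a9 and Slc6a5), where it called 15.6% of genes as lower.

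**Figure D1:**
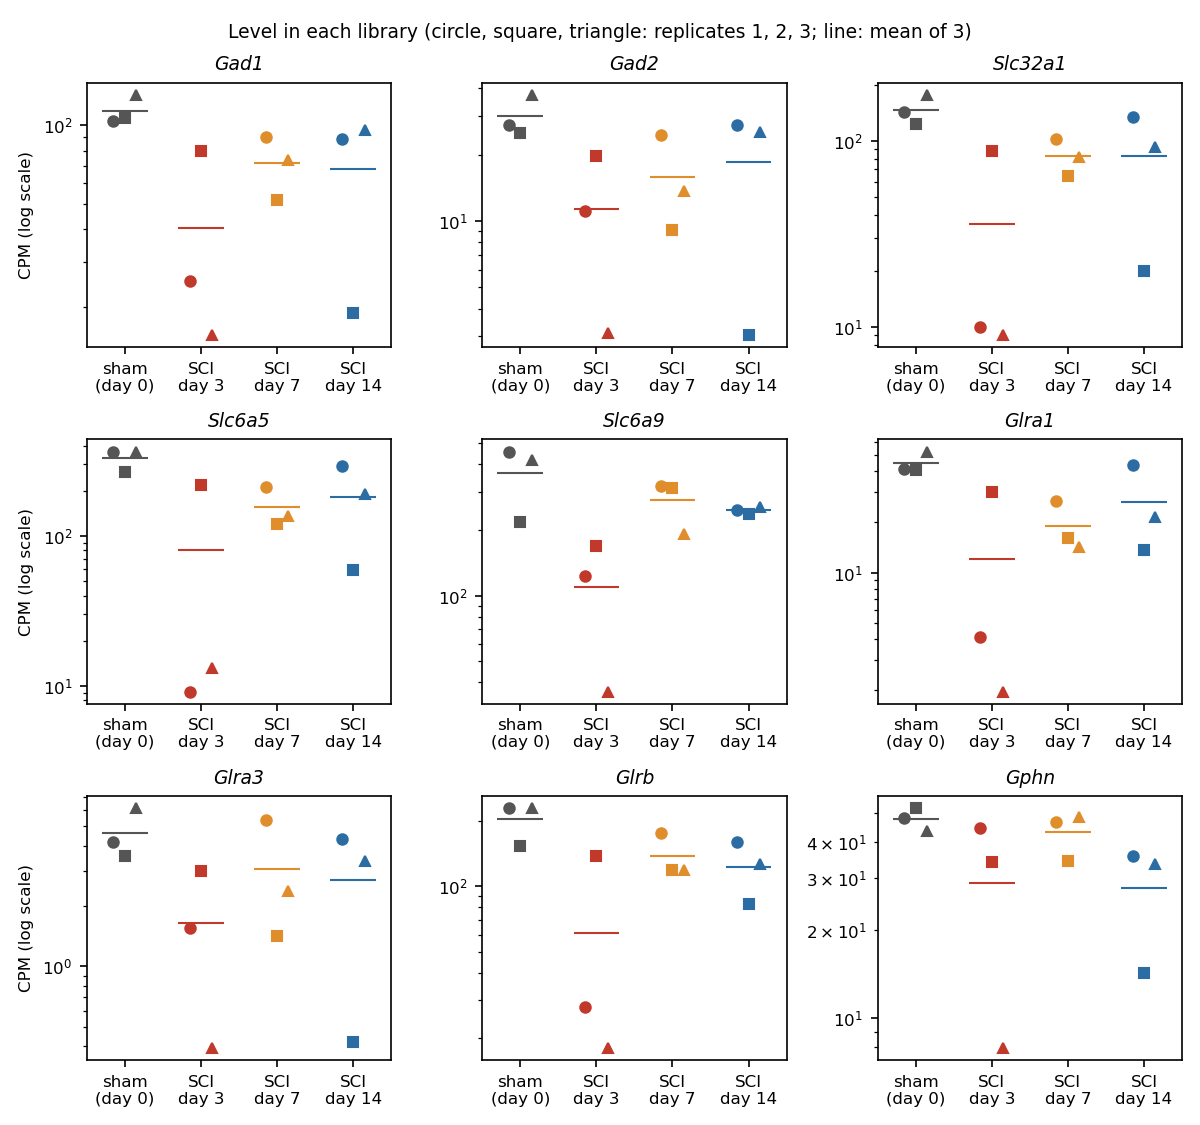
CPM on a log axis of the 9 genes in each of the 12 libraries, by group from sham (day 0) to SCI day 14; circles, squares and triangles are replicates 1, 2 and 3 and the line is the mean of 3. In 8 of the 9 panels all day 3 points lie below all sham points, day 3 replicate 2 (square) is the highest of its group in all panels but Gphn, and day 14 replicate 2 (square) is the lowest of its group in every panel.

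The GABA-synthesising enzymes were low in both day 3 libraries with low neuron marker RNA and nearer to the sham range in the third. Gad1 (ENSRNOG00000000007) measured 25.3, 80.0 and 15.7 CPM in replicates 1, 2 and 3 of SCI day 3, against 104, 107 and 131 CPM in sham. At day 7 it measured 90.5, 51.7 and 73.6 CPM and at day 14 88.5, 19.1 and 95.8 CPM. All 9 SCI libraries thus lay below the 3 sham libraries, and the lowest were SCI day 3 replicate 3 and SCI day 14 replicate 2. The log2 fold change of Gad1 was -1.50 ± 0.644 at day 3, -0.66 ± 0.633 at day 7 and -0.75 ± 0.634 at day 14 (SE; by edgeR, adjusted p = 0.128, 0.778 and 0.887). Gad2 (ENSRNOG00000018200) measured 11.1, 19.7 and 3.11 CPM at day 3, against 27.2, 24.9 and 37.3 CPM in sham, and 24.5, 9.14 and 13.7 CPM at day 7. At day 14 it measured 27.3, 3.04 and 25.2 CPM, so that 2 of the 3 libraries lay within the sham range while replicate 2 lay below it. Its log2 fold changes of -1.40 ± 0.775, -0.92 ± 0.766 and -0.69 ± 0.764 at days 3, 7 and 14 did not pass (by edgeR, adjusted p = 0.214, 0.749 and 0.898).

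VGAT, the transporter that marks inhibitory terminals, spread widely between the day 3 libraries. Slc32a1 (ENSRNOG00000015393) measured 9.97, 88.2 and 9.04 CPM in replicates 1, 2 and 3 of SCI day 3, against 142, 123 and 176 CPM in sham. Day 7 gave 102, 64.7 and 82.1 CPM, with no overlap with sham, and at day 14 135, 19.99 and 92.5 CPM. Only SCI day 14 replicate 1 lay within the sham range. The group means were 35.7 ± 45.4 CPM at day 3, against 147 ± 26.8 CPM in sham, and 82.9 ± 18.7 CPM at day 7 and 82.3 ± 57.9 CPM at day 14 (SD, n = 3 each). The log2 fold changes were -2.04 ± 0.872, -0.82 ± 0.845 and -0.84 ± 0.845 (SE; by edgeR, adjusted p = 0.127, 0.791 and 0.896).

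The neuronal glycine transporter GlyT2 had, in SCI day 3 replicate 1, the lowest share of its sham mean of any of the 9 genes in any library. Slc6a5 (ENSRNOG00000031662) measured 9.17, 219 and 13.3 CPM in replicates 1, 2 and 3 of SCI day 3, against 366, 265 and 361 CPM in sham. Replicates 1 and 3 stood at 2.77% and 4.01% of the sham mean. The day 7 libraries had 213, 119.6 and 136 CPM, all below sham, and at day 14 293, 58.9 and 192 CPM, where replicate 1 lay within the sham range. The log2 fold changes of -2.04 ± 1.03 at day 3, -1.08 ± 1.0 at day 7 and -0.87 ± 1.0 at day 14 did not pass (SE; by edgeR, adjusted p = 0.179, 0.773 and 0.898).

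The mostly glial transporter GlyT1 had the largest share of its sham mean of the 9 genes in SCI day 14 replicate 2. Slc6a9 (ENSRNOG00000019484) measured 123, 169.6 and 36.3 CPM in replicates 1, 2 and 3 of SCI day 3, against 458 and 418 CPM in sham replicates 1 and 3 and 219 CPM in sham replicate 2. At day 7 it measured 318, 310.4 and 192 CPM and at day 14 248, 237 and 255 CPM. The day 14 libraries averaged 247 ± 8.67 CPM (SD, n = 3), and SCI day 14 replicate 2, which lay below all sham libraries in the other 8 genes, measured close to its group here. The log2 fold changes were -1.74 ± 0.480 at day 3, -0.42 ± 0.467 at day 7 and -0.57 ± 0.468 at day 14 (SE; by edgeR, adjusted p = 0.0540, 0.812 and 0.885). The day 3 value was the nearest of the 9 to the limit, and it passed with a filter of 1 CPM in every library of a group (by edgeR, adjusted p = 0.0487), a fit that called 2.23% of genes as lower.

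All 3 glycine receptor subunits measured lower in every day 3 library than in any sham library. Glra1 (ENSRNOG00000013588), whose mutations cause startle disease in humans, measured 4.13, 29.98 and 1.96 CPM in replicates 1, 2 and 3 of SCI day 3, against 41.4, 40.8 and 52.6 CPM in sham. Its day 7 levels were 26.8, 16.1 and 14.3 CPM, all below sham, and at day 14 43.6, 13.5 and 21.4 CPM, of which replicate 1 lay within the sham range. Its log2 fold changes were -1.90 ± 0.836, -1.24 ± 0.820 and -0.78 ± 0.813 at days 3, 7 and 14, and the day 7 value was the lowest of the 9 genes on that day (SE; by edgeR, adjusted p = 0.134, 0.676 and 0.898). Glrb (ENSRNOG00000010199) measured 27.8, 137 and 18.0 CPM at day 3, against 229, 153 and 229 CPM in sham, with 176, 119 and 119 CPM at day 7 and 159.9, 82.9 and 127 CPM at day 14. Its log2 fold changes were -1.74 ± 0.635, -0.56 ± 0.619 and -0.72 ± 0.620 (SE; by edgeR, adjusted p = 0.0919, 0.808 and 0.888). Glra3 (ENSRNOG00000049792) was scarce, at 1.55, 2.98 and 0.392 CPM in replicates 1, 2 and 3 of SCI day 3, against 4.15, 3.53 and 6.16 CPM in sham. On day 7 the values were 5.34, 1.41 and 2.37 CPM and at day 14 4.29, 0.422 and 3.35 CPM, so that the groups overlapped with sham on both days. Its log2 fold changes were -1.49 ± 0.859, -0.60 ± 0.843 and -0.78 ± 0.845 (SE; by edgeR, adjusted p = 0.231, 0.849 and 0.898).

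Gephyrin had 2 entries in the table, with the same coordinates and strand, and reads were divided between them unevenly from library to library. The entry with more counts (ENSRNOG00000064630), taken by the rule, measured 44.4, 34.0 and 7.92 CPM in replicates 1, 2 and 3 of SCI day 3, against 48.1, 52.0 and 43.6 CPM in sham. Day 7 gave 46.6, 34.4 and 48.4 CPM and at day 14 35.7, 14.2 and 33.5 CPM, and its log2 fold changes of -0.73 ± 0.515, -0.15 ± 0.513 and -0.78 ± 0.516 did not pass (SE; by edgeR, adjusted p = 0.323, 0.942 and 0.834). The other entry (ENSRNOG00000064046) measured 8.46, 2.98 and 18.7 CPM at day 3, against 37.6, 19.0 and 40.5 CPM in sham, and took 8.05% to 70.3% of the counts of both entries at day 3 and 26.7% to 48.2% in sham. The sources used here do not give how reads matching both were assigned, so the value of either entry alone is uncertain. Summed over both entries, an alternative chosen after seeing the data, gephyrin measured 52.9, 37.0 and 26.6 CPM at day 3, against 85.7, 71.0 and 84.0 CPM in sham. At day 7 the sum was 81.4, 64.8 and 70.2 CPM and at day 14 72.9, 49.4 and 65.4 CPM. On the sum gephyrin fell at day 3, with a log2 fold change of -1.05 ± 0.238 (SE; by edgeR, adjusted p = 0.0385), and this fit called 1.20% of all genes as lower. The call remained in 3 of the 12 fits that left out 1 library each, those without SCI day 3 replicate 2, SCI day 7 replicate 1 or SCI day 14 replicate 2, while the log2 fold change ranged from -1.34 to -0.84 (by edgeR, adjusted p = 0.0186 to 0.164). Without both day 3 libraries lowest in neuron markers the summed value was -1.12 (by edgeR, adjusted p = 0.592). The summed log2 fold change was -0.15 at day 7 and -0.36 at day 14 (by edgeR, adjusted p = 0.863 and 0.833).

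**Figure D2:**
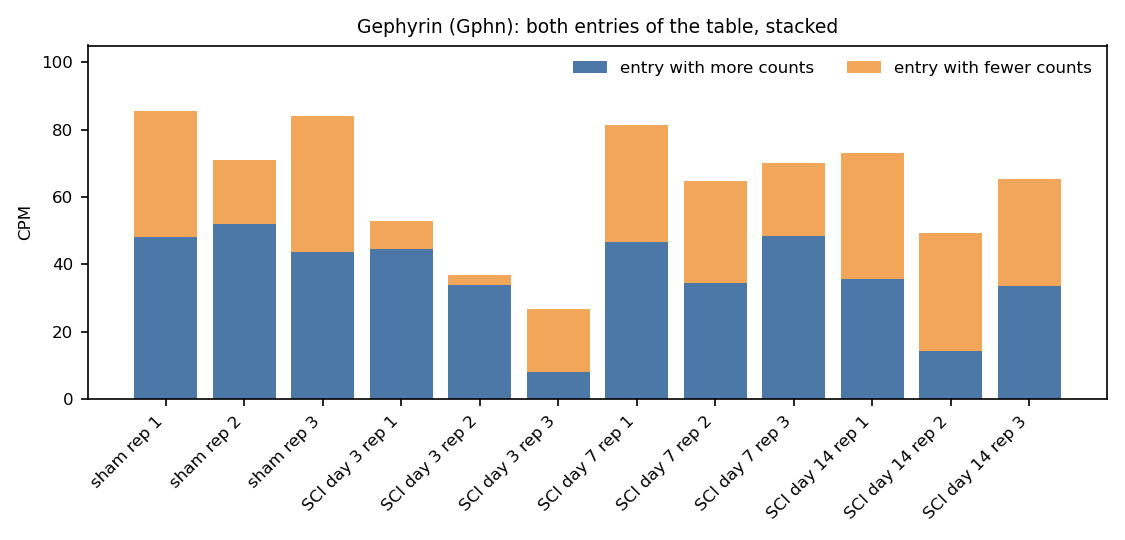
Stacked bars of the CPM of both table entries of gephyrin in each library, from 0, with the entry with more counts at the bottom. The division between entries varies, with the smaller entry at 8.05% of both in SCI day 3 replicate 2 and 71.2% in SCI day 14 replicate 2, while the summed height is between 26.6 and 52.9 CPM at day 3 and between 71.0 and 85.7 CPM in sham.

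At day 7 all 9 genes again had lower means than in sham, with log2 fold changes between -1.24 and -0.15 and a median of -0.66, against -0.02 over all genes. For 5 of them (Gad1, Gad2, Slc32a1, Slc6a5 and Glra1) the day 7 libraries lay entirely below the sham libraries, as for 10.8% of all genes. None passed (by edgeR, adjusted p = 0.676 to 0.942, with 0 of 9 at an unadjusted p under 0.05, against 9.89% of all genes), and this comparison called 0.0160% of all genes. An edgeR fit of the day 7 and sham libraries alone also called 0 of the 9, with 6 at an unadjusted p under 0.05. In that fit 3306 of 17833 genes were under this limit and 89 were called. With limma voom 2 of the 9 and 4213 of 18714 genes were under it. DESeq2 and limma voom called 0 of the 9, and 2.61% and 1.47% of all genes. The 5 genes without overlap at day 7 are the 2 decarboxylases, the vesicular transporter, the neuronal glycine transporter and the alpha 1 subunit. The 4 whose groups overlapped were GlyT1, Glra3, Glrb and gephyrin. At day 14 the 9 log2 fold changes lay between -0.87 and -0.57, with a median of -0.78, against 0.01 over all genes. Gad1 and Gphn were the 2 whose day 14 libraries did not overlap with sham, as for 6.28% of all genes, although summed over both entries gephyrin overlapped, with replicate 1 of SCI day 14 at 72.9 CPM, against 71.0 CPM for sham replicate 2. None of the 9 passed (by edgeR, adjusted p = 0.834 to 0.898, with 0 of 9 at an unadjusted p under 0.05, against 7.40% of all genes). That comparison also called 0.0160% of all genes, and DESeq2 and limma voom called 0 of the 9, and 1.16% and 0.0481% of all genes. A fit of day 14 and sham alone gave 1 of the 9 and 1804 of 17865 genes at an unadjusted p under 0.05 (by edgeR). It called 0 genes. With limma voom 2 of the 9 and 2784 of 18714 genes were under this limit at day 14.

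**Figure D3:**
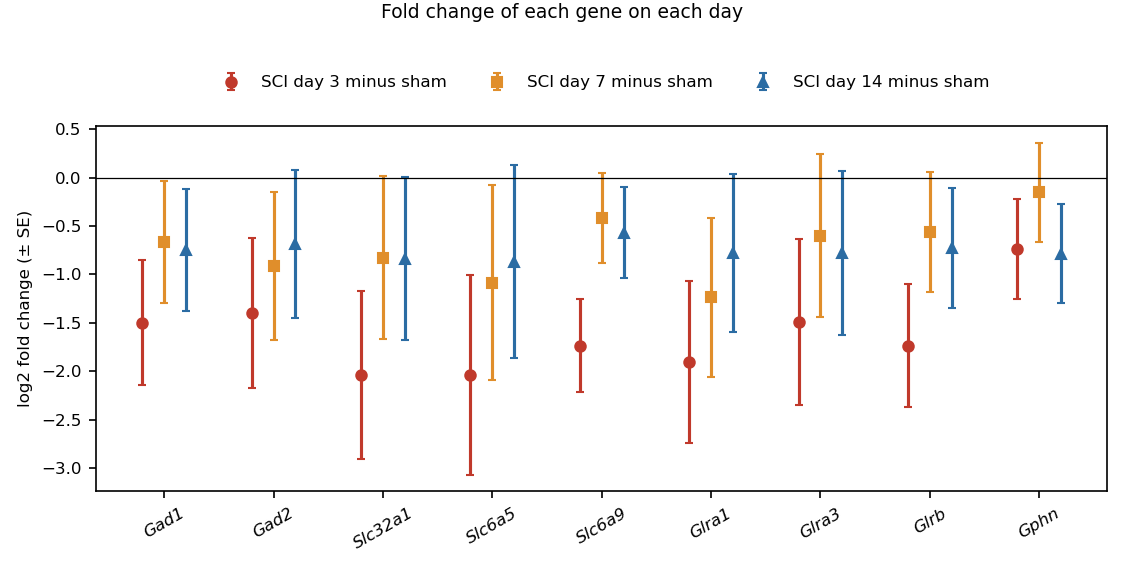
Log2 fold change with SE of each gene at day 3 (circle), day 7 (square) and day 14 (triangle) against the same sham libraries, with 0 drawn as a line. All 27 values are below 0, the day 3 values from -2.04 to -0.73 are the lowest for every gene but Gphn, and none passed edgeR's adjusted limit.

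Between days no member passed either. Day 7 over day 3 gave 9 log2 fold changes between 0.48 and 1.32, the largest being that of Slc6a9 (by edgeR, adjusted p = 0.323, unadjusted p = 0.0186). Slc6a9 was the 1 gene of the 9 whose day 7 libraries all lay above its day 3 libraries, as for 6.08% of all genes. Day 14 over day 7 gave values between -0.63 and 0.46 with 6 of 9 below 0, and the libraries of those days overlapped for all 9 genes, where 4.83% of all genes were lower and 5.40% higher without overlap. Day 14 over day 3 gave values between -0.05 and 1.20, with Gphn the 1 below 0, and Slc6a9 again the 1 gene whose groups did not overlap, as for 7.02% of all genes (by edgeR, adjusted p = 0.248). These 3 comparisons called 0% of all genes in edgeR, and at an unadjusted p under 0.05 they gave 1, 0 and 1 of the 9, against 14.8%, 3.67% and 17.9% of all genes (day 7 over day 3, day 14 over day 7 and day 14 over day 3). DESeq2 called 0 of the 9 in each, and 1.23%, 0.228% and 6.40% of all genes, and limma voom 0 of the 9, and 0.00534%, 0% and 0% of all genes. The mean of the SCI days over sham gave log2 fold changes from -1.33 (Slc6a5) to -0.56 (Gphn), of which 0 passed (by edgeR, adjusted p = 0.228 to 0.43, with 1 of 9, Slc6a9, at an unadjusted p under 0.05, against 19.1% of all genes). That comparison called 0.0481% of all genes. DESeq2 called 0 of the 9 and 8.12% of all genes, and limma voom called 7 as lower (all but Glra3 and Gphn) and 15.8% of all genes as lower. The test over the 4 groups together, which called 0.0427%, gave 0 of 9 with an adjusted p by edgeR from 0.220 to 0.604 (1 of 9 at an unadjusted p under 0.05, against 19.5% of all genes). There DESeq2 called 1 of the 9 and 15.0% of all genes, and limma voom 4 of the 9 and 16.7% of all genes.

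Within each group the libraries did not carry the difference evenly. Relative to the sham means, the median gene of the 9 stood at 22.2% in SCI day 3 replicate 1, 66.3% in replicate 2 and 8.87% in replicate 3. It stood at 82.3%, 44.1% and 52.7% in the day 7 libraries and at 88.5%, 17.8% and 69.7% in the day 14 libraries. SCI day 14 replicate 2 had 8 of the 9 genes below the lowest sham library, with Glra3 at 9.15% and Slc6a9 at 65.02% of the sham mean. In that library the general neuron list stood at -0.71 and Chat, which makes acetylcholine in motor neurons, at 42.7 CPM, against 38.3 to 43.6 CPM in sham. Slc17a6, the vesicular glutamate transporter 2 of excitatory neurons, was low there, at 45.2 CPM, against 108 to 159 CPM in sham, and so was Slc12a5, the chloride extruder KCC2 of mature neurons, at 94.7 CPM, against 457 to 609 CPM in sham. The library was also the one with the most Scn10a, 131 CPM, and the part of this in the low values was not tested.

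Without SCI day 3 replicate 2, the day 3 library closest to sham, edgeR called 6 of the 9 genes as lower at day 3, in a fit that called 18.0% of all genes as lower. The log2 fold changes were then -4.88 for Slc6a5, -3.95 for Slc32a1, -3.88 for Glra1, -3.15 for Glrb, -2.48 for Gad1 and -2.20 for Slc6a9 (by edgeR, adjusted p = 0.00105, 0.00251, 0.00139, 0.000709, 0.0110 and 0.00883). Without SCI day 3 replicates 1 and 3, the 2 libraries lowest in neuron markers, the day 3 values lay between -1.10 (Slc6a9) and -0.49 (Gphn) with no call (by edgeR, adjusted p = 0.900 to 0.949), in a fit that called 0.00508% of all genes. That fit rests on a single day 3 library, assumed to vary like the other groups. Leaving out SCI day 3 replicate 2 also gave 5 members as higher in day 7 over day 3, against 11.4% of all genes, and 5 as higher in day 14 over day 3, against 12.9%. It gave 5 as lower in any SCI day over sham, against 9.30% of all genes, and 4 in the test over the 4 groups, against 22.7%. Without all 3 libraries with sensory ganglion transcripts, which include SCI day 3 replicate 2, edgeR called 7 of the 9 as lower at day 3, the same 6 and Gad2 at a log2 fold change of -2.06 (by edgeR, adjusted p = 0.0322), in a fit that called 17.5% of all genes as lower. The other calls of that fit were 5 members as higher in day 7 over day 3 (11.5% of all genes), 5 as higher in day 14 over day 3 (8.55%), 5 as lower in any SCI day over sham (7.35%) and 5 in the test over the 4 groups (19.3%).

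Set against the general neuron list within the same library, the genes parted from each other. The value given is a gene's log2 difference from its sham mean minus that of the 15 neuron markers, so that 0 means that it stood as far from sham as those markers did. Log2 was taken after adding 0.50 CPM to every level, which shrinks the differences of scarce genes from sham. GlyT2 stood at -2.07, -0.31 and -1.02 in replicates 1, 2 and 3 of SCI day 3, at -0.61, -0.83 and -0.75 at day 7 and at -0.12, -1.75 and -0.35 at day 14. VGAT stood at -0.78, -0.45 and -0.38 at day 3, at -0.50, -0.54 and -0.30 at day 7 and at -0.07, -2.12 and -0.23 at day 14. Both were below 0 in all 9 SCI libraries, and how many of all genes were so was not counted. Gephyrin was above 0 in replicates 1 and 3 of SCI day 3, at 2.91 and 1.03, on an entry whose share of reads varied as given above. Gad1 at 0.87 and 0.74, Gad2 at 1.65 and 0.50, Glra3 at 1.73 and 1.07 and Slc6a9 at 1.52 and 0.31 were also above 0 in those libraries. Glrb stayed between -0.55 and 0.19 in all 9 SCI libraries, closest to the neuron list of the 9 genes. Glra1 stood between -1.10 and 0.01, with its lowest value in SCI day 7 replicate 3. It was below 0 in every SCI library but SCI day 14 replicate 1. In SCI day 14 replicate 2, Gad2 stood at -2.36, Gad1 at -1.83 and Glra3 at -1.73, while Slc6a9 stood at 0.16. The neuron list itself stood at -0.71 in that library, while its marker Rbfox3 measured 41.7 CPM there, against 103 to 127 CPM in sham. That library had 131 CPM of Scn10a, and SCI day 14 replicate 1 and SCI day 3 replicate 2 had 79.6 and 19.6 CPM. The part of sensory ganglion RNA in the neuron list, and so in these values, was not tested.

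**Figure D4:**
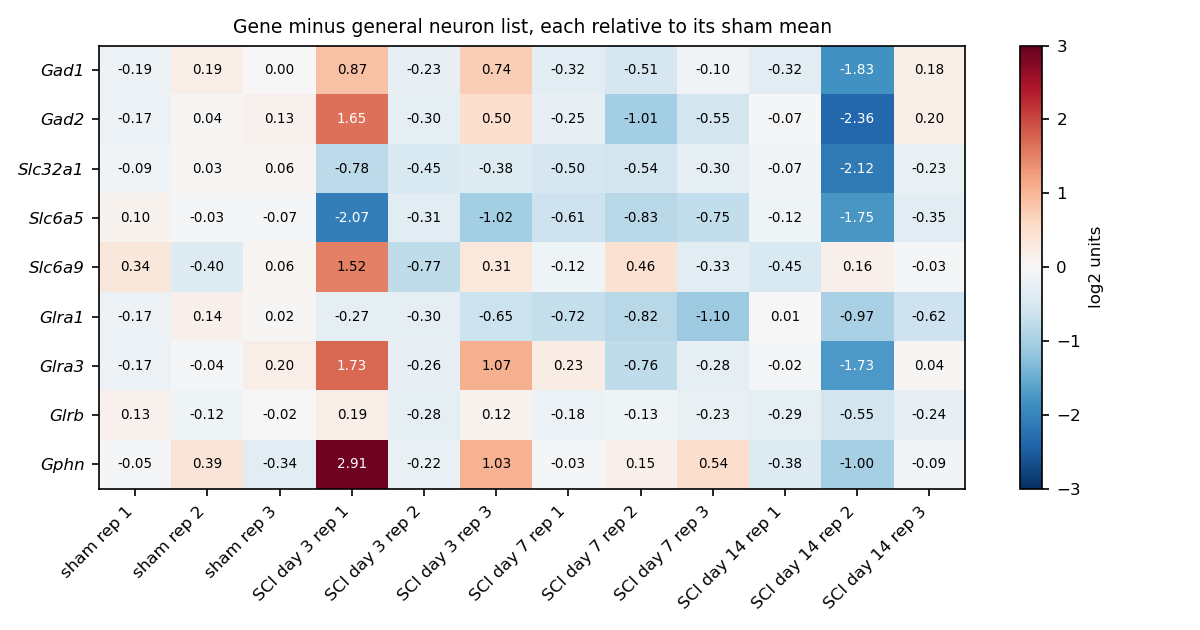
Heat map of each gene's log2 difference from its sham mean minus that of the 15 general neuron markers, per library, on a colour scale from -3 to 3 log2 units with the values printed. Log2 was taken after adding a small constant to CPM, which raises the values of the scarce Glra3 in SCI day 3 replicate 3 and SCI day 14 replicate 2. Slc32a1 and Slc6a5 are below 0 in all 9 SCI libraries. SCI day 14 replicate 2 is the column with the lowest values for Gad1, Gad2, Slc32a1, Glra3, Glrb and Gphn. The part of sensory ganglion RNA in the neuron list was not tested.

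Ratios of counts within a library, which need no scaling between libraries, were compared for 5 pairs, with p adjusted over the 5. The ratio of VGAT to vesicular glutamate transporter 2 (Slc32a1 over Slc17a6) was 0.273, 0.875 and 0.658 in replicates 1, 2 and 3 of SCI day 3, against 1.06, 1.14 and 1.11 in sham. It was 0.890, 0.903 and 1.10 at day 7 and 1.14, 0.442 and 1.04 at day 14. All day 3 values were below sham, with a log2 difference of -1.03 (two-sided exact permutation test, p = 0.1, the smallest that 3 against 3 libraries allow). Over the 9 SCI libraries against 3 sham libraries the log2 difference was -0.56 (two-sided exact permutation test, p = 0.141, adjusted 0.352, where 0.00455 is the smallest possible).

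The other 4 ratios did not pass either. Slc6a5 over Slc32a1, the neuronal glycine transporter against the transporter shared with GABA neurons, was 0.919, 2.49 and 1.47 at day 3, against 2.58, 2.16 and 2.05 in sham. It was 2.09, 1.85 and 1.66 at day 7 and 2.18, 2.95 and 2.08 at day 14, and the log2 difference of any SCI day from sham was -0.27 (exact permutation p = 0.395, adjusted 0.494). Glra1 over Glrb had a log2 difference of -0.49 (exact permutation p = 0.0909, adjusted 0.352), with all 3 day 7 libraries, at log2 values of -3.06 to -2.71, below the sham libraries at -2.47 to -1.90 (log2 difference -0.72, exact permutation p = 0.1). Slc6a9 over Slc6a5, mostly glial against neuronal, was 13.4, 0.774 and 2.74 at day 3, against 1.25, 0.824 and 1.16 in sham. It was 1.496, 2.60 and 1.41 at day 7, above all sham libraries, and 0.847, 4.03 and 1.33 at day 14 (any SCI day log2 difference 0.97, exact permutation p = 0.232, adjusted 0.386). Gad1 over Gad2 had a log2 difference of 0.12 (exact permutation p = 0.677, adjusted 0.677).

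**Figure D5:**
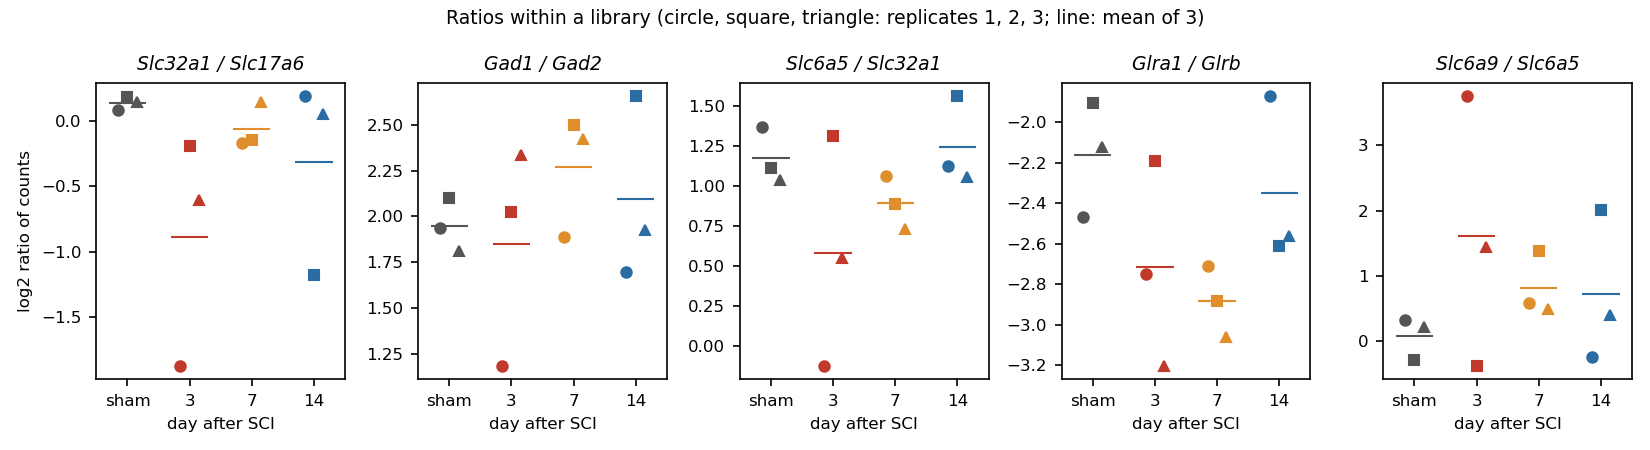
Log2 ratio of counts within each library for 5 gene pairs, from sham to day 14; circles, squares and triangles are replicates 1, 2 and 3 and the line is the mean of 3. The Slc32a1 over Slc17a6 points of day 3 all lie below the sham points, and the Glra1 over Glrb points of day 7 do so too.

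The 9 genes varied together across the 12 libraries, as a description that includes the differences between groups. The Pearson correlations of log2 CPM between the 36 pairs ran from 0.57 to 0.99 with a median of 0.84. Without SCI day 3 replicates 1 and 3, the 28 pairs without Slc6a9 ran from 0.52 to 0.98 with a median of 0.88, and the 8 pairs with Slc6a9 ran from 0.23 to 0.67 with a median of 0.35. The genes outside the set whose levels ran most like the mean of the 9 (z-scored log2 CPM, 12 libraries, 11821 genes with a symbol and a mean of at least 5 CPM) were Dlgap2, Fstl5, Kcnc2, Elfn2, RragB, Slc4a10, Cntn4 and Cacna1g. Their correlations were 0.990 to 0.994 over 12 libraries and 0.966 to 0.983 without those 2 libraries. The genes were picked for the highest values over these same libraries, so both ranges are high by that choice. The points share library depth and tissue content.

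Calls among other genes of the same pathways at day 3 depended on the tool. In the list of GABA uptake and breakdown, edgeR called 1 of 9 genes as lower and 0 as higher at day 3, against 1.20% of all genes as lower, while DESeq2 and limma voom each called 5 as lower, against 10.9% and 15.6%. The list had a median log2 fold change of -1.38, against 0.03 over all genes, and 0 passed at days 7 and 14 by any of the 3 tools (medians -0.31 and -0.37). The gene that edgeR called was Slc38a3, a glutamine transporter, which measured 19.7, 52.3 and 22.3 CPM in replicates 1, 2 and 3 of SCI day 3, against 98.4, 62.8 and 84.1 CPM in sham (log2 fold change -1.38, by edgeR, adjusted p = 0.0449). The call remained in 1 of 12 fits that left out a library each, that without SCI day 3 replicate 2 (by edgeR, adjusted p = 0.000797 to 0.164 over the 12). It was lost with the replicate block and with only the groups compared (by edgeR, adjusted p = 0.0871 and 0.160). Without the 2 libraries lowest in neuron markers the log2 fold change of Slc38a3 was -0.64. Slc6a11, the GABA transporter GAT3 of astrocytes, measured 5.78, 55.2 and 5.68 CPM at day 3, against 141, 95.5 and 152 CPM in sham (log2 fold change -2.54, by edgeR, adjusted p = 0.0748). Aldh5a1, which completes GABA breakdown, had a log2 fold change of -1.64 (by edgeR, adjusted p = 0.0553).

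In glycine and serine metabolism edgeR called 1 of 9 genes as higher and 0 as lower at day 3 (median -0.24). DESeq2 called 3 as lower and 2 as higher and limma voom 3 in each direction. Over all genes at day 3 edgeR called 1030 of 18714 as higher and 1.20% as lower. DESeq2 called 2972 of 18791 as higher and 10.9% as lower, and limma voom 3312 of 18714 as higher and 15.6% as lower. At days 7 and 14, 0 passed by any of the 3 tools (medians -0.16 and -0.27). Shmt1, the cytosolic hydroxymethyltransferase that converts serine and glycine, measured 23.3, 4.88 and 9.74 CPM in replicates 1, 2 and 3 of SCI day 3, against 2.06, 2.89 and 2.70 CPM in sham. Its log2 fold change was 2.31 (by edgeR, adjusted p = 0.0392). The call remained in 2 of 12 fits that left out a library each (by edgeR, adjusted p = 0.00214 to 0.164 over the 12). Those 2 were without SCI day 3 replicate 2 or SCI day 14 replicate 1. The call was lost with the replicate block and with only the groups compared (by edgeR, adjusted p = 0.0854 and 0.138). Without the 2 libraries lowest in neuron markers the log2 fold change of Shmt1 was 0.94. Amt and Dld, both of the glycine cleavage system, had log2 fold changes of -0.63 and -0.24 at day 3 (by edgeR, adjusted p = 0.0687 and 0.239).

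Over all genes at day 3, 35.3% had an unadjusted p under 0.05 and 6.70% passed in edgeR. DESeq2 and limma voom called 10.9% and 15.6% as lower, and 2972 of 18791 and 3312 of 18714 as higher. At day 3, 0 of 14 genes of the other glycine receptor subunits and the inhibitory postsynapse passed in edgeR, with a median of -0.97. In that list 7 had an unadjusted p under 0.05, and DESeq2 called 5 and limma voom 7 as lower. Of the 14, the dynein light chain Dynll2, which binds gephyrin, had a log2 fold change of -1.22 and Mocs1, of molybdenum cofactor synthesis, 0.46 (by edgeR, adjusted p = 0.0784 and 0.187). Of 14 GABA-B and GABA-A receptor genes measured, 0 passed at day 3 although all 14 had values below 0, with a median of -1.47, while 7 had an unadjusted p under 0.05 and DESeq2 called 6 and limma voom 11 as lower. Examples are Gabbr1 at -0.85 and Gabra4 at -1.30 (by edgeR, adjusted p = 0.0657 and 0.0916). Of 21 markers of spinal inhibitory interneurons that were measured, 0 passed, with a median of -1.18, 3 had an unadjusted p under 0.05, and DESeq2 and limma voom called 2 and 4 as lower and 1 and 2 as higher. Among them the transcription factor Tfap2b stood at -2.36 and Tal1 at 1.14 (by edgeR, adjusted p = 0.117 and 0.0632), and the neuropeptide Npy at -0.04. Tal1 measured 20.3, 9.50 and 11.4 CPM in replicates 1, 2 and 3 of SCI day 3, against 5.31 to 7.68 CPM in sham. Endothelial markers summed to 1276, 481 and 811 CPM in those day 3 libraries, against 219 to 304 CPM in sham. Whether the Tal1 RNA came from interneurons was not tested. Of 13 excitatory neuron genes 0 passed, with a median of -1.13, 6 had an unadjusted p under 0.05, and DESeq2 called 1 and limma voom 5 as lower. Among them Slc17a6 stood at -1.41, the dorsal horn factor Lmx1b at -1.43 and the synaptic pentraxin Nptx2 at 0.27 (by edgeR, adjusted p = 0.124, 0.235 and 0.545). The excitatory list ran from -2.29 to 3.65 at day 3, with 11 of 13 below 0, and from -1.32 to 5.18 at day 14, with 7 below 0. The part of sensory ganglion RNA in its high values was not tested. In these 4 lists 0 genes passed at days 7 and 14 in edgeR, DESeq2 or limma voom, with medians from -0.58 to -0.31 at day 7 and from -0.59 to -0.04 at day 14. The difference between the inhibitory and the excitatory lists was not tested beyond the ratio of Slc32a1 to Slc17a6.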

How the data were processed

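Per the labels, a column kit gave total RNA and a SMARTer mRNA-Seq kit the libraries. Per the file headers, the authors deposited read counts for each gene, and whole numbers with unequal totals show that they were not normalised. The deposited FPKM values were scaled by the authors per kilobase and per 1e+06 reads, per the file headers, and served here to compare levels between genes. GRCm38 and mm10 stand in the submitters' processing notes, both mouse builds, whereas the gene identifiers are rat Ensembl ones, so no coordinates of the table are printed. For the aligner, the counting tool and strandedness, nothing was given in the sources used here.

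Counts of 18714 of 23526 genes passed edgeR's filterByExpr, were scaled with TMM factors and fitted over all 12 libraries, with 1 mean per group and 8 residual degrees of freedom (edgeR 4.0.16, R 4.3.3). The quasi-likelihood test was adjusted by Benjamini-Hochberg over all genes with a limit of 0.05. SEs were taken as the absolute log2 fold change over the root of F. Ratios were tested by exact permutation. Alternatives were DESeq2 1.42.0 (adjusted p-values it withholds were kept as missing), limma voom 3.58.1 with sample weights, other scalings and filters, a replicate block, a fit limited to the groups compared, and fits leaving out 1 library each. The fits without libraries chosen by markers and with both gephyrin entries summed were added after seeing the data. The code was tested on simulated data.

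The members and lists were chosen with earlier results of these data known. The rule named all 9 members, the genes called in each of 6 pathway lists and otherwise up to 3 with the smallest p over any SCI day, 8 genes of most similar course, and Slc17a6, Slc12a5 and Chat where a result turned on them. A symbol with several entries was taken at the entry with most counts. Same-numbered libraries of different groups had correlations of their deviations between -0.34 and 0.25, and the main fit did not pair them. Libraries of different numbers were not set beside these, so the correlations cannot settle whether the numbers mark a pairing. Values of 2 genes that the rule named are not reported here.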

Additional observations from a re-analysis of the deposited data

How the results depend on the processing

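All comparisons gave 0 of 9 members called in the main analysis. At day 3 against sham the count was 3 with DESeq2, 6 with limma voom, 1 with the filter of 1 CPM, 7 without the 3 libraries with sensory ganglion transcripts (Scn10a over 10 CPM), and 1 with gephyrin summed. With 1 library left out it ranged from 0 to 6, where 6 was without SCI day 3 replicate 2 and every other library gave 0. The calls over all genes in that comparison, 1254, ranged from 1 to 7087 over the settings. They were 1 without sham replicate 3, and 1 in the fit limited to the groups compared. With the replicate number as a block, 8 genes and 0 members were called. For any SCI day over sham the count was 7 with limma voom and 5 without the 3 libraries, with a left-out range of 0 to 5. For the 4 groups together it was 1 with DESeq2, 4 with limma voom and 5 without the 3 libraries, with a left-out range of 0 to 4. Day 7 over day 3 and day 14 over day 3 each gave 5 without the 3 libraries and left-out ranges of 0 to 5. Every left-out value above 0 came without SCI day 3 replicate 2. Day 7 and day 14 against sham and day 14 over day 7 gave 0 under all settings run.

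The ratios kept their sign with each library left out: Slc32a1 over Slc17a6 between -0.63 and -0.38, Gad1 over Gad2 0.05 and 0.23, Slc6a5 over Slc32a1 -0.35 and -0.14, Glra1 over Glrb -0.64 and -0.36, and Slc6a9 over Slc6a5 0.63 and 1.14. The day alone turned 2 of them, Gad1 over Gad2 to -0.10 at day 3 and Slc6a5 over Slc32a1 to 0.073 at day 14.

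Signs of single genes turned in 36 values between days and in none of those against sham. Without the 2 libraries lowest in neuron markers, day 7 over day 3 was -0.15 for Gad1, -0.32 for Gad2, -0.090 for Slc32a1, -0.49 for Slc6a5 and -0.66 for Glra1. There day 14 over day 3 was -0.24 for Gad1, -0.092 for Gad2, -0.10 for Slc32a1, -0.28 for Slc6a5, -0.20 for Glra1, -0.15 for Glra3 and -0.16 for Glrb. Day 14 over day 3 of Gphn was 0.39 with limma voom, 0.0036 with the replicate block, 0.35 without the 3 libraries and 0.69 summed, and between -0.50 and 0.41 with a library left out. Day 14 over day 7 without the 3 libraries was 0.39 for Gad1 and 0.13 for Slc32a1 and for Glra3, and with the replicate block 0.024 for Slc32a1. With a library left out it ranged from -0.42 to 0.33 for Gad1, -0.16 to 0.71 for Gad2, -0.56 to 0.43 for Slc32a1, -0.32 to 0.61 for Slc6a5, -0.12 to 0.79 for Glra1, -0.69 to 0.50 for Glra3 and -0.40 to 0.050 for Glrb. The cause was not tested.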
